A study of Mus musculus with 8 samples.

Results

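The genes Pmp22, Emp1, Emp2 and Emp3 encode peripheral myelin protein 22 and the epithelial membrane proteins, a small family of tetraspan membrane glycoproteins. They were compared between organoids with and without an active form of the coactivator YAP. The 4 genes were taken by symbol from a count table of 56691 rows, all 4 had a row, and all 4 were among the 13812 genes that passed the count filter. The family was singled out with results of the YAP5SA against Ctrl contrast already known. Differences of the 4 genes in that contrast are therefore given as descriptions, with an SE and without a p-value.

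The RNA was sequenced in bulk from organoids, epithelial cells grown in 3 dimensions, which were started from the glandular stomach (hindstomach) of mouse embryos at day 18.5. All cultures spent 5 days in growth medium and then 7 days in differentiation medium. In YAP5SA cultures the genotype was Shh-Cre;YAP5SA (n = 4), and in Ctrl cultures it was Shh-Cre alone (n = 4). All 8 thus carried Shh-Cre, a Cre recombinase driven from the Shh gene, which is active in foregut endoderm. YAP5SA is a YAP protein with its inhibitory phosphorylation sites mutated, so that the kinases of the Hippo pathway cannot restrain it. The labels name neither the embryos nor the litters or culture days behind the replicates, so the spread behind each p-value is that between these samples and may be technical.

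PMP22 is a major component of compact myelin in peripheral nerve, where too many or too few copies of its gene cause inherited neuropathies, and it is also made in epithelia, where it has been located at tight junctions. EMP1 is found in many epithelia. EMP2 binds integrins and influences which of them and of the caveolins reach the cell surface, and EMP3 is prominent in blood cells. In rodent Schwann cells, the glia that make peripheral myelin, TEAD1 acts with YAP and TAZ at regulatory regions of Pmp22.

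Total counts were 17387372 to 21039926 in the YAP5SA libraries and 18225648 to 25841256 in the Ctrl libraries. The Yap1 row, in which transgenic and endogenous reads cannot be told apart, averaged 140 ± 2.21 CPM (counts of a gene scaled to the library total) in YAP5SA and 118 ± 11.0 CPM in Ctrl (SD, n = 4 each). The groups also differed completely in sex-linked transcripts. Xist, the RNA of the inactive X chromosome, had 0 to 8 counts in YAP5SA libraries and 8436 to 12237 counts in Ctrl libraries. Counts of the Y-linked Eif2s3y, Ddx3y, Kdm5d and Uty were 880 to 3854 in every YAP5SA library and 0 in every Ctrl library. Genotype and the sex of the cultured cells cannot be told apart in any result below.

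Epithelial markers were abundant in all libraries. Their 8 genes summed to 14485 to 17145 CPM in YAP5SA and 23611 to 25593 CPM in Ctrl. The adhesion molecule gene Epcam was at 591 CPM in YAP5SA and 296 CPM in Ctrl, Cdh1, which encodes E-cadherin, at 1247 CPM in YAP5SA and 2148 CPM in Ctrl, and the keratin gene Krt8 at 2385 CPM in YAP5SA and 5362 CPM in Ctrl. The label of epithelial cells thus had its defining markers in both groups.

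Pmp22 RNA was nearly missing from Ctrl organoids and present in every YAP5SA organoid culture. The YAP5SA libraries held 792, 692, 587 and 1110 Pmp22 counts, and the Ctrl libraries 2, 2, 5 and 0. In CPM after TMM scaling, which aligns libraries on the bulk of their genes, these were 35.9, 36.0, 31.2 and 50.6 in YAP5SA and 0.113, 0.118, 0.208 and 0 in Ctrl. The lowest YAP5SA library thus lay far above the highest Ctrl library, and YAP5SA replicate 4 was the highest of all. The means were 38.4 ± 8.39 CPM in YAP5SA and 0.110 ± 0.0853 CPM in Ctrl (SD, n = 4 each).

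The fitted log2 fold change of Pmp22 was 8.28 (SE 0.30), rank 14 from the highest of 13812 genes. The Y-linked Eif2s3y, Ddx3y, Kdm5d and Uty, without counts in Ctrl, were among the genes ranked above it. Counted over the groups, 3181 against 9 counts per total count gave a ratio of 373 with a 95% counting interval of 196 to 816. The 0 counts of Ctrl replicate 4 allow a level of up to 0.158 CPM, the value of 3 counts over that library's total without TMM scaling. Such intervals and limits hold for counting error alone and leave out the spread between replicates. They also take reads as independent molecules, which reads without molecular identifiers are not. Pmp22 passed the count filter through the YAP5SA libraries alone, because no Ctrl library reached 10 counts. In bulk RNA, a change in the number of cells that express Pmp22 and a change in RNA per cell cannot be told apart.

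Emp2 RNA was the next most different. Its level was 630, 679, 663 and 600 CPM in YAP5SA libraries, against 110, 139, 127 and 133 CPM in Ctrl libraries. The groups were far apart and each was tight, with means of 643 ± 35.2 CPM in YAP5SA and 127 ± 12.6 CPM in Ctrl (SD, n = 4 each). The log2 fold change was 2.34 (SE 0.09), a 5.07-fold difference.

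Emp1 was the most abundant gene of the family and differed little in proportion. It was at 833, 862, 783 and 936 CPM in YAP5SA libraries, against 589, 539, 541 and 723 CPM in Ctrl libraries. The groups did not overlap, but Ctrl replicate 4 came close to YAP5SA replicate 3. The log2 fold change was 0.51 (SE 0.10), a 1.43-fold difference, from means of 854 ± 63.9 CPM in YAP5SA and 598 ± 86.6 CPM in Ctrl (SD, n = 4 each).

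Emp3 was low in both groups. The YAP5SA libraries held 50, 33, 28 and 40 counts, or 2.27, 1.71, 1.49 and 1.82 CPM. The Ctrl libraries held 56, 29, 24 and 48 counts, or 3.16, 1.72, 0.9997 and 2.68 CPM. The YAP5SA values lay within the range of the Ctrl values. The log2 fold change was -0.21 (SE 0.33, 95% interval -0.86 to 0.44), which leaves its direction undetermined, and it was 0.02 without Ctrl replicate 1.

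**Figure D1:**
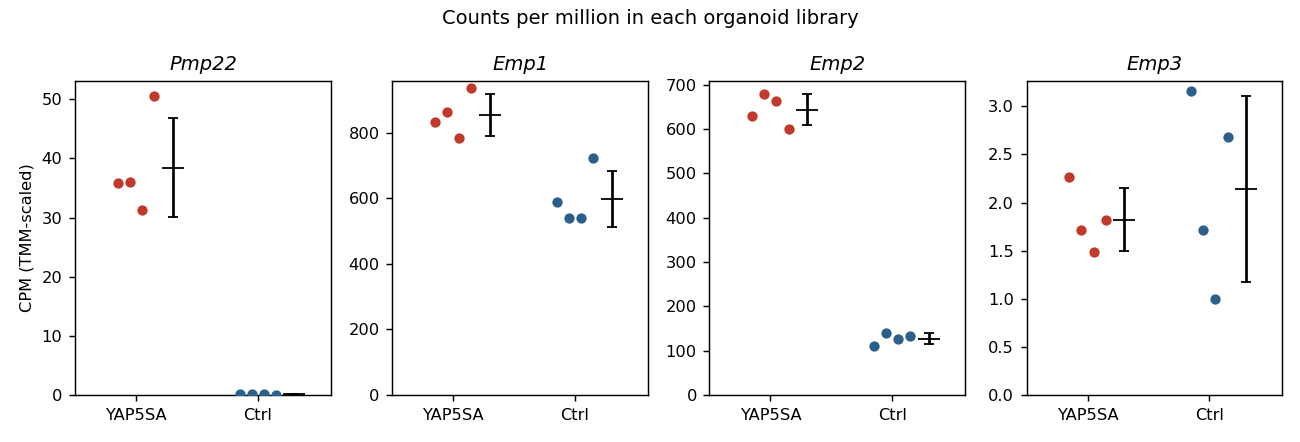
Level of Pmp22, Emp1, Emp2 and Emp3 in TMM-scaled CPM (y axes, each from 0 and on its own scale) in YAP5SA and Ctrl organoids. Points are single libraries in order of replicate number, and bars give the mean ± SD (n = 4); the groups are apart for Pmp22, Emp2 and Emp1 and overlap for Emp3.

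In 3 of the 4 genes, then, every YAP5SA library lay above every Ctrl library. Of all genes tested, 58.7% had groups that did not overlap, and 30.4% had all YAP5SA libraries higher. Since the contrast served to choose the family, nothing is read from that count. Called at an edgeR adjusted p under 0.05 were 64.5% of the 13812 genes tested, 33.1% higher and 31.3% lower in YAP5SA.

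**Figure D2:**
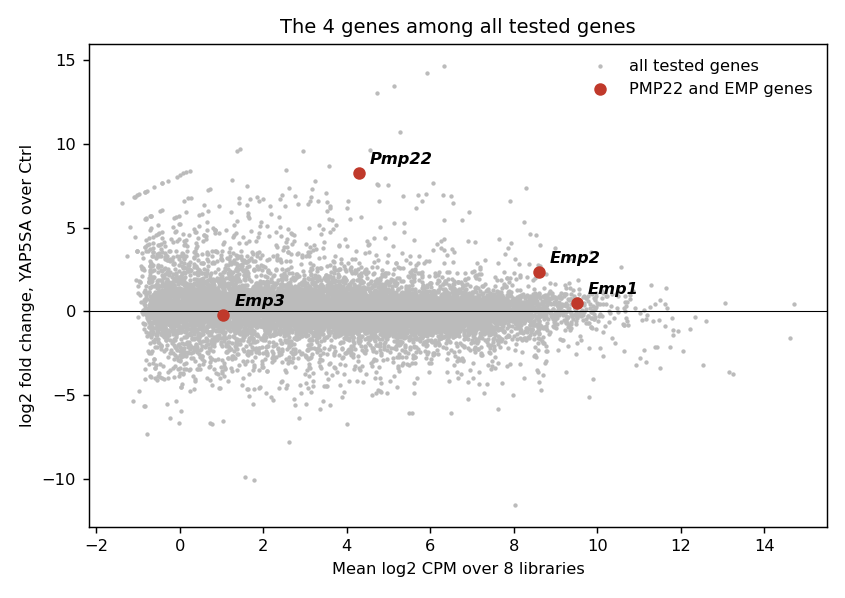
Log2 fold change of YAP5SA over Ctrl (y axis) against mean log2 CPM over 8 libraries (x axis) for the 13812 tested genes, with the 4 family genes in red. Pmp22 lies among the highest fold changes at 8.28, Emp2 at 2.34 and Emp1 at 0.51 are abundant transcripts, and Emp3 lies near 0 at a low level.

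The 4 genes differed in how far replicates scattered. In YAP5SA the coefficient of variation of CPM was 21.8% for Pmp22, 7.49% for Emp1, 5.47% for Emp2 and 17.9% for Emp3. In Ctrl it was 77.7% for Pmp22, 14.5% for Emp1, 9.91% for Emp2 and 45.2% for Emp3. Counting error alone gives 66.7% at the mean of 2.25 Pmp22 counts in Ctrl, 16.3% for Emp3 in YAP5SA and 16.0% for Emp3 in Ctrl. The scatter of Pmp22 in YAP5SA, where counting error is 3.55%, and of Emp3 in Ctrl was thus well above counting error, and that of Pmp22 in Ctrl and of Emp3 in YAP5SA was close to it. The fitted biological coefficient of variation was 15.5% for Pmp22, 10.6% for Emp1, 9.10% for Emp2 and 29.2% for Emp3, against a median of 12.4% over all tested genes. YAP5SA replicate 4 had the highest Pmp22 and Emp1 and the lowest Emp2 of its group.

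Levels were then set side by side per length, as CPM per kilobase (kb) of exons. Exon lengths in GENCODE M21 were 2354 bases for Pmp22, 5935 for Emp1, 8644 for Emp2 and 1071 for Emp3. In YAP5SA the order was Emp1 at 144 ± 10.8, Emp2 at 74.4 ± 4.07, Pmp22 at 16.3 ± 3.57 and Emp3 at 1.70 ± 0.305 CPM per kb. In Ctrl it was Emp1 at 101 ± 14.6, Emp2 at 14.7 ± 1.46, Emp3 at 1.996 ± 0.902 and Pmp22 at 0.0467 ± 0.0362 CPM per kb (SD, n = 4 each). Neighbours in either order differed beyond their spread, with no overlap between the libraries of one gene and those of the next. Pmp22 and Emp3 exchanged places between the groups.

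Summed over the family, the level was 236 ± 11.8 CPM per kb in YAP5SA and 117 ± 15.2 CPM per kb in Ctrl. Emp1 made up 60.8 ± 1.63% of it in YAP5SA and 85.6 ± 1.53% in Ctrl. Emp2 made up 31.6 ± 2.80% in YAP5SA and 12.6 ± 1.93% in Ctrl. Pmp22 held 6.87 ± 1.17% in YAP5SA and 0.0427 ± 0.0339% in Ctrl, and Emp3 held 0.722 ± 0.133% in YAP5SA and 1.68 ± 0.704% in Ctrl. Emp1 remained the main transcript in every library while its share was smaller in YAP5SA.

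**Figure D3:**
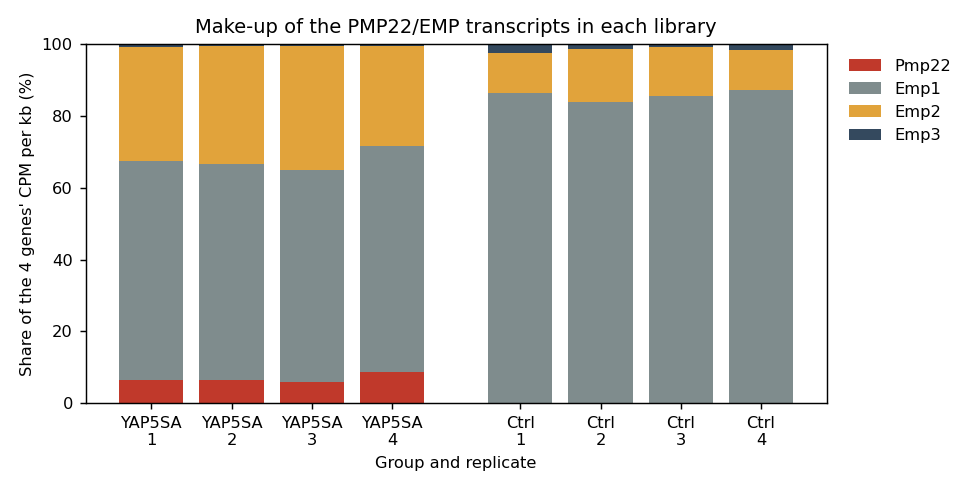
Share of each gene in the summed CPM per kb of the 4 genes (y axis, percent) in each library (x axis, group and replicate). Emp2 holds 27.7% to 34.3% in the YAP5SA libraries and 11.0% to 14.8% in the Ctrl libraries, and Pmp22 is visible only in YAP5SA.

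Ratios between family genes within a library do not depend on how libraries are scaled. Emp2 per Emp1, both per length, was 0.440 to 0.581 in YAP5SA and 0.126 to 0.177 in Ctrl. Pmp22 per Emp2 was 0.173 to 0.309 in YAP5SA and 0 to 0.00604 in Ctrl. For both ratios the groups were well apart. Emp3 per Emp1 was 0.0105 to 0.0151 in YAP5SA and 0.0102 to 0.0297 in Ctrl, where the groups overlapped.

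The 4 genes lie on different chromosomes, Pmp22 on 11, Emp1 on 6, Emp2 on 16 and Emp3 on 7. No other gene of GENCODE M21, of any type and on either strand, overlaps any of them. Of their 8 nearest protein-coding neighbours, chosen by position after the data were seen, 7 had a row under the same symbol. Beside Pmp22, the heparan sulfate sulfotransferase gene Hs3st3b1 fell by 1.75 on the log2 scale (SE 0.09, edgeR adjusted p = 1.47e-09), and Tekt3, which encodes a tektin, a filament protein of cilia and sperm tails, had 0 counts in all libraries. Tekt5, a tektin gene beside Emp2, had 159 counts in YAP5SA and 2 in Ctrl, a ratio of 83.9 (95% counting interval 22.8 to 698), and passed the count filter through YAP5SA alone. Pbp2 beside Emp1 was at 0.49 (edgeR adjusted p = 0.0484), and its call ended with RLE scaling (adjusted p = 0.0562) and without any 1 of 6 libraries, all but Ctrl replicate 2 and YAP5SA replicate 4 (adjusted p = 0.0543 to 0.127). Tmem143 beside Emp3 was at 0.02 (SE 0.24, edgeR adjusted p = 0.95). Hs3st3b1 thus went against the difference of its neighbour Pmp22, while Tekt5 went the same way as Emp2 and Pbp2 the same way as Emp1.

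RefSeq lists 9 promoter windows for the 4 genes on GRCm38.p6, each from 250 bases before to 50 after an annotated start, 4 of them for Pmp22, 2 each for Emp1 and Emp3 and 1 for Emp2. Because counts are summed per gene, they do not show which Pmp22 start was in use. The windows were searched on both strands for GGAATG, the core letters bound by TEAD factors, and for TGANTCA, letters bound by AP-1 factors; the motifs share no bases in these windows. The first window of each of the 3 genes whose groups did not overlap is shown, with matches in capitals; these windows hold all the matches found, and nothing in the counts ties a difference to them.
Pmp22, chr11:63128732-63129031, + strand: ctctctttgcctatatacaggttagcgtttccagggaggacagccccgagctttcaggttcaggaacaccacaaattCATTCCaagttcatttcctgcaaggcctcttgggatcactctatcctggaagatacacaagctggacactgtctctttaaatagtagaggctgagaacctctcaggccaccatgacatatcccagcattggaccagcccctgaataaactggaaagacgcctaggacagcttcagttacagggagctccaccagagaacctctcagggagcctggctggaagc
Emp2, chr16:10313919-10314218, - strand: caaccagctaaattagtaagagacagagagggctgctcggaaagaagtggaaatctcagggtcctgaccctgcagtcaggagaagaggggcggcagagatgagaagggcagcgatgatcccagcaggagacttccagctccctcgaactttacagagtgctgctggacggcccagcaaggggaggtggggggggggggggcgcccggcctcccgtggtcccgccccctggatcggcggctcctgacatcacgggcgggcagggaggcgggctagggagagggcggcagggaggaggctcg
Emp1, chr6:135362681-135362980, + strand: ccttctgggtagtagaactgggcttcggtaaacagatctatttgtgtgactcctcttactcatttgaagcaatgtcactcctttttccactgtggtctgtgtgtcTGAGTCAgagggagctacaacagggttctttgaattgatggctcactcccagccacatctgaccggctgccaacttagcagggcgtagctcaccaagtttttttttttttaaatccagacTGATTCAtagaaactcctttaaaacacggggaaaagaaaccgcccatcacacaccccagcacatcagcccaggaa

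The first Pmp22 window had 1 match to GGAATG, read on the opposite strand as CATTCC, which begins at -173 relative to the start. It was the only one of the 9 windows with that motif. The first Emp1 window had 2 matches to TGANTCA, the first beginning at -145, and no other window of the family had one. The only Emp2 window had neither motif. Among all 32851 RefSeq promoter windows of that length, 14.7% held GGAATG and 7.81% held TGANTCA, so the matches are given as descriptions of the letters only. GC content ran from 46.7% in the first Emp1 window to 72.3% in the last Pmp22 window.

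Relatives of the family in the wider PMP22 and claudin superfamily, claudins proper left out, were mostly not expressed. Of 27 listed genes, 11 had 0 counts in all libraries, among them Lim2, a lens fibre protein gene, and only 4 were tested. Perp and Cldnd1 rose and Lhfpl2 fell in YAP5SA, where 64.5% of all tested genes were called, 33.1% higher and 31.3% lower. The other, Lhfp, a tetraspan gene first found at a lipoma translocation, had 952 to 1163 counts in YAP5SA libraries and 2 to 8 in Ctrl libraries, and it passed the filter through YAP5SA alone. Its log2 fold change, given as a description, was 7.55 (SE 0.20). Perp, a p53 target needed for desmosomes, was at 502 ± 53.6 CPM in YAP5SA and 338 ± 10.7 CPM in Ctrl (log2 fold change 0.57, SE 0.08, edgeR adjusted p = 2.74e-05). Cldnd1, a claudin domain gene, rose by 0.66 (SE 0.08), and Lhfpl2, a paralogue of Lhfp, fell by 1.09 (SE 0.29) on the log2 scale (edgeR adjusted p = 7.83e-06 and 0.00505).

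Binding partners and handling factors reported for PMP22 or the EMPs went in both directions. Of 16 listed genes 14 were tested, and 7 rose and 7 fell, where 64.5% of all tested genes were called. Their median log2 fold change was 0.10, against 0.02 over all tested genes. The largest rise was that of Cav1, encoding caveolin-1, the coat protein of caveolae whose level EMP2 has been reported to influence. Cav1 was at 625 ± 70.1 CPM in YAP5SA and 3.79 ± 0.897 CPM in Ctrl (SD, n = 4 each; log2 fold change 7.37, SE 0.16, edgeR adjusted p = 5.75e-13). Cd44, the hyaluronan receptor gene reported to partner with EMP3, was at 219 ± 13.2 CPM in YAP5SA and 50.2 ± 7.47 CPM in Ctrl (edgeR adjusted p = 4.60e-10).

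The integrin subunits among the partners were split. Itgb1, the beta 1 subunit gene, averaged 1884 ± 99.1 CPM in YAP5SA and 979 ± 24.6 CPM in Ctrl, higher by 0.94 on the log2 scale (SE 0.07, edgeR adjusted p = 3.65e-08). Itgav, the alpha v subunit gene, rose by 0.70 (SE 0.09, edgeR adjusted p = 1.48e-05). Itgb4, whose product pairs with the alpha 6 subunit in hemidesmosomes and has been found in a complex with PMP22, averaged 103 ± 13.4 CPM in YAP5SA and 237 ± 22.3 CPM in Ctrl (-1.20, SE 0.10, edgeR adjusted p = 1.35e-07). Itga6, the alpha 6 subunit gene, fell by 0.23 (SE 0.07, edgeR adjusted p = 0.0143), but not when libraries were scaled by total counts alone (-0.05, adjusted p = 0.527). The beta 3 subunit gene Itgb3 and the purinergic receptor gene P2rx7 were too low to test, with 33 and 3 counts over the YAP5SA libraries and 24 and 6 counts over the Ctrl libraries.

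Of the genes that handle PMP22 in the endoplasmic reticulum, the chaperone gene Canx (calnexin) rose by 0.44 (SE 0.07), while the retrieval receptor gene Rer1 fell by 0.25 (SE 0.07) and the ubiquitin ligase gene Syvn1 fell by 0.35 (SE 0.12; edgeR adjusted p = 0.000136, 0.00558 and 0.0183). The tight junction scaffold gene Tjp1 rose by 0.43 (SE 0.08) and Ocln, the occludin gene, fell by 0.33 (SE 0.08; edgeR adjusted p = 0.000357 and 0.00334). These small falls rest on the scaling. With scaling by total counts alone the median of all tested genes moved from 0.02 to 0.19 on the log2 scale, 5742 genes were called higher and 3201 lower, against 4577 and 4330, and the fallen partners numbered 2, Itgb4 and the kinase gene Src. The Syvn1 call also ended without YAP5SA replicate 2 (adjusted p = 0.0608).

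Regulators reported for Pmp22 in Schwann cells were read together with the TEAD family. Of 13 listed genes 9 were tested, of which 6 rose, 1 fell and 2 were not called, where 33.1% of all tested genes were called higher and 31.3% lower. The median log2 fold change was 0.42, against 0.02 over all tested genes. Tead1, the family member that acts on Pmp22 in Schwann cells, averaged 166 ± 13.0 CPM in YAP5SA and 33.3 ± 4.95 CPM in Ctrl (SD, n = 4 each; edgeR adjusted p = 3.02e-10). Tead4 averaged 19.9 ± 5.10 CPM in YAP5SA and 8.21 ± 1.17 CPM in Ctrl (log2 fold change 1.28, SE 0.17, edgeR adjusted p = 1.53e-05), and Wwtr1, which encodes TAZ, 111 ± 10.2 CPM in YAP5SA and 59.6 ± 5.54 CPM in Ctrl (edgeR adjusted p = 9.05e-07). Tead2 was at -0.03 (SE 0.22) and Tead3 at -0.06 (SE 0.13), neither of them called. Yap1 is counted among the 6 that rose and in the median, although its row cannot tell transgenic from endogenous reads. Yap1 was at 0.25 (edgeR adjusted p = 0.0111), and not called without Ctrl replicate 3 (0.19, adjusted p = 0.0711).

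The glucocorticoid receptor gene Nr3c1 rose by 0.82 (SE 0.12), and of the EGR2 corepressor genes Nab2 rose by 0.42 (SE 0.10) and Nab1 fell by 0.21 (SE 0.08; edgeR adjusted p = 3.88e-05, 0.00183 and 0.0302). The Nab1 call ended with scaling by total counts alone (adjusted p = 0.73) and without Ctrl replicate 4, YAP5SA replicate 2 or YAP5SA replicate 3 (adjusted p = 0.0522, 0.0993 and 0.0795). The genes of the transcription factors of Schwann cell myelination were at or near 0. Sox10 had 0 counts in all libraries, Egr2 had 5 counts over the YAP5SA libraries and 13 over the Ctrl libraries, and Pou3f1 had 5 over YAP5SA and 4 over Ctrl.

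**Figure D4:**
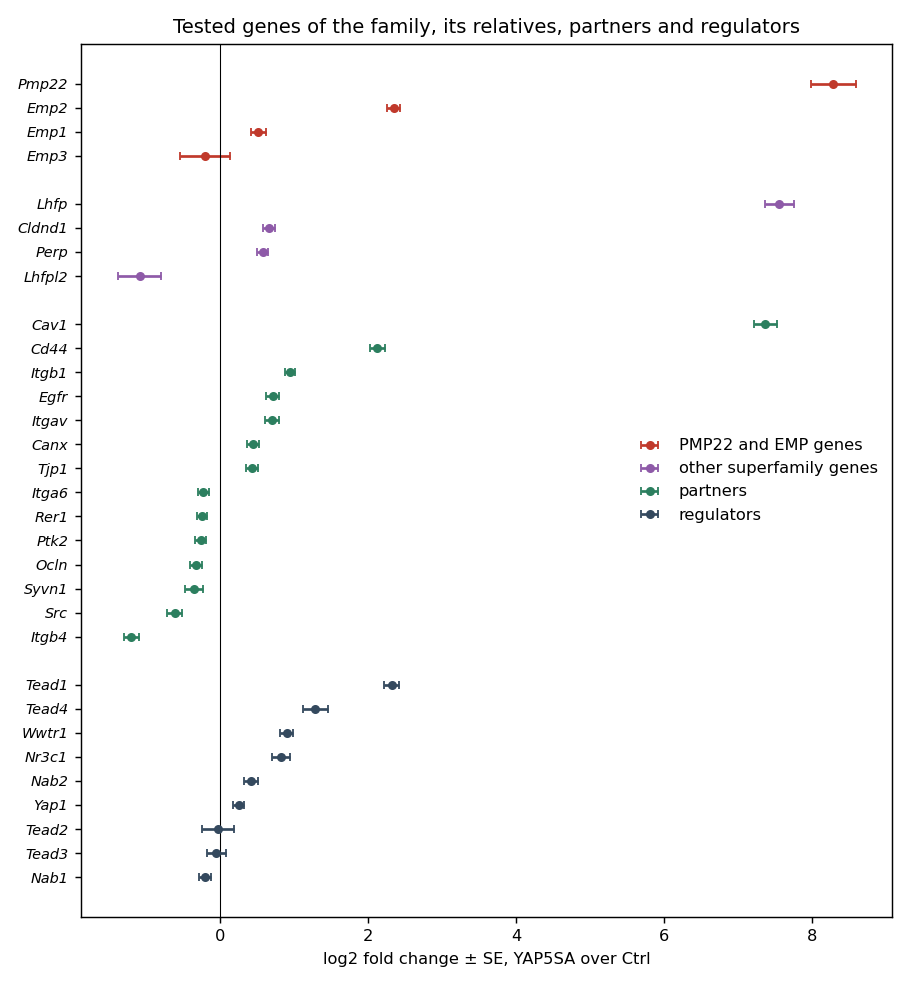
Log2 fold change of YAP5SA over Ctrl with its SE (x axis) for the tested genes of the family, the wider superfamily, the partners and the regulators (y axis, sorted within each list). Pmp22 at 8.28, Lhfp at 7.55 and Cav1 at 7.37 stand beyond the other genes shown, of which the next is Emp2 at 2.34.

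PMP22 was first described in fibroblasts as a growth arrest-specific product under the name GAS3. Of 5 other genes named for growth arrest, 4 were tested, and 3 rose and 1 fell, where 64.5% of all tested genes were called, 33.1% higher and 31.3% lower. The median log2 fold change was 1.33, against 0.02 over all tested genes. Gas6, a ligand of the receptor kinase AXL, was at 157 ± 20.2 CPM in YAP5SA and 47.1 ± 12.4 CPM in Ctrl (SD, n = 4 each; log2 fold change 1.73, SE 0.15, edgeR adjusted p = 2.12e-07). Gas5, a small nucleolar RNA host gene, rose by 1.33 (SE 0.14), and Gas7, which encodes an actin-associated protein, rose by 1.34 (SE 0.26) at a level of 2.80 CPM in YAP5SA and 1.09 CPM in Ctrl (edgeR adjusted p = 1.47e-06 and 0.00045). Gas2, a cytoskeletal protein gene, fell by 0.58 (SE 0.19, edgeR adjusted p = 0.0149), and its call ended with scaling by total counts alone (-0.40, adjusted p = 0.0816).

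Pmp22 is best known from Schwann cells and fibroblasts, so markers of those cells were read beside it. Of 18 Schwann cell and myelin markers, 4 had 0 counts in all libraries, namely Sox10, Foxd3, Cdh19 and Fabp7. The list summed to 290 to 324 CPM in YAP5SA and 604 to 773 CPM in Ctrl, and most of it came from Gjb1 and Erbb3, which fell, and from Mbp. Mbp, which encodes myelin basic protein, was at 143 CPM in YAP5SA and 72.1 CPM in Ctrl (log2 fold change 0.99, SE 0.09, edgeR adjusted p = 3.25e-07). Prx, the periaxin gene, rose by 0.96 at 2.29 CPM in YAP5SA and 1.18 CPM in Ctrl (edgeR adjusted p = 0.0149), a call that ended without YAP5SA replicate 3 (0.66, adjusted p = 0.0737). Of the 7 tested, 2 rose, 4 fell and 1 was not called, where 33.1% of all tested genes were called higher and 31.3% lower. Those that fell were Gjb1 at -3.06, Cnp at -1.58, Erbb3 at -1.34 and Ncmap at -0.91 on the log2 scale. Each had an edgeR adjusted p of 1.44e-05 or less. Mag, a myelin protein gene, had 38 counts over YAP5SA and 0 over Ctrl.

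Of 10 fibroblast and mesenchyme markers, Col1a2, Lum, Dpt and Postn had 0 counts in all libraries, and none was high enough to test. Their sum was 0.572 to 1.04 CPM in YAP5SA and 0.282 to 0.769 CPM in Ctrl, with Col1a1 at 4 counts over YAP5SA and 9 over Ctrl. Within that list the receptor genes Pdgfra and Pdgfrb had 36 and 20 counts over YAP5SA and 8 and 2 over Ctrl. In both lists some markers thus had 0 counts, some had more counts in YAP5SA and some had fewer. The part of either cell type in the Pmp22 difference was not tested.

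Other cell types were read in the same way. Sums were 3.01 to 4.37 CPM in YAP5SA and 5.50 to 6.25 CPM in Ctrl for 8 enteric neuron markers, among which Elavl4 had 0 counts in all libraries. For 6 smooth muscle markers they were 1.09 to 1.65 CPM in YAP5SA and 0.828 to 1.42 CPM in Ctrl, and for 6 endothelial markers 0.208 to 0.729 CPM in YAP5SA and 0.670 to 1.80 CPM in Ctrl, with Pecam1 at 4 counts over YAP5SA and 6 over Ctrl. The 8 immune markers summed to 31.3 to 43.2 CPM in YAP5SA and 8.45 to 17.6 CPM in Ctrl, nearly all of it Cd68, a lysosomal protein gene, while the pan-leukocyte gene Ptprc had 3 counts over YAP5SA and 15 over Ctrl. The 5 mesothelial markers summed to 2975 to 3283 CPM in YAP5SA and 3647 to 4305 CPM in Ctrl, nearly all of it Msln, which fell by 0.42 on the log2 scale (edgeR adjusted p = 0.000304). Of the other 2 tested, Upk3b, a uroplakin gene, averaged 101 CPM in YAP5SA and 23.4 CPM in Ctrl (log2 fold change 2.11, SE 0.25, edgeR adjusted p = 4.98e-06), and Wt1, which passed the filter through YAP5SA alone, had 88 counts over YAP5SA and 0 over Ctrl. Among markers with few counts, more were also found in YAP5SA for the lysozyme gene Lyz2 (71 over YAP5SA and 3 over Ctrl), the smooth muscle myosin gene Myh11 (54 over YAP5SA and 5 over Ctrl) and the mesothelial list's Gpm6a (23 over YAP5SA and 0 over Ctrl). The smooth muscle markers Cnn1, Acta2 and Actg2 had 10, 7 and 4 counts over YAP5SA and each had 0 over Ctrl. Fewer were found in YAP5SA for the smooth muscle markers Tagln (23 over YAP5SA and 69 over Ctrl) and Des (9 over YAP5SA and 14 over Ctrl). So it was for the endothelial markers Cdh5 (5 over YAP5SA and 44 over Ctrl) and Tek (16 over YAP5SA and 58 over Ctrl). Of the neuron markers, Tubb3 (21 over YAP5SA and 79 over Ctrl) and Ret (156 over YAP5SA and 294 over Ctrl) had fewer. Uchl1 had more (96 over YAP5SA and 35 over Ctrl). The part of these cell types in the differences of Pmp22 and Emp2 was not tested.

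Genes whose profile over the 8 libraries lay closest to each family gene were found by the root-mean-square difference of log2 CPM, each gene centred on its own mean, among 10008 genes whose mean log2 CPM was 2 or more. With 2 groups this far apart, the measure mostly matches the size of the group difference. Closest to Pmp22 were Cav1 at a difference of 0.35, Lhfp at 0.39 and the monocarboxylate transporter gene Slc16a12 at 0.51. Closest to Emp2 were P4ha2, a collagen prolyl hydroxylase gene, at 0.09, Amotl2, a YAP-binding angiomotin gene, at 0.12 and Ccdc9b at 0.13. For Emp1 these were Nfxl1, Zswim4 and Nip7 at 0.05 to 0.06, and for Emp3 Usp36, Rcl1 and Eef1aknmt at 0.24 each.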

How the data were processed

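RNA was measured in 4 YAP5SA and 4 Ctrl organoid cultures, grouped by sample title. The deposited table holds raw counts by the authors, in whole reads for each gene. HISAT2 2.0.1, HTSeq 0.6.1, cutadapt and the build mm9 are named in the submitters' processing notes, without roles; annotation and strand setting: not given in the sources used here. The files give no coordinates. Lengths and neighbours come from GENCODE M21 (GRCm38) and promoter sequences from RefSeq (GRCm38.p6), so lengths are approximate for these counts.

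Counts were tested in R 4.3.3 with the quasi-likelihood F test of edgeR 4.0.16, two-sided, without covariates, after filterByExpr (minimum count 10, minimum total 15) and TMM scaling. Benjamini-Hochberg adjustment ran over all 13812 genes, and genes with an adjusted p under 0.05 were called. The SE was taken as the absolute log2 fold change over the root of F. CPM use TMM-scaled totals, and log2 CPM a prior count of 2. A limit for 0 counts is 3 counts, taken over the total count without TMM scaling. Replicates of a group differed beyond sampling noise (chi-square per degree of freedom 4.69 to 34.9). The procedure was run on simulated data in which a small part of the genes was changed and all shared a common dispersion. In the real data 64.5% of tested genes were called, so that run does not show how the procedure behaves here.

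The family and the gene lists (wider superfamily, partners, regulators, growth arrest-specific genes and markers of 8 cell types) were chosen from general knowledge with earlier results of these data known. Named were the 4 family genes, up to 4 tested genes of each of the first 4 lists with the smallest p, the 3 closest profiles per family gene, and check and marker genes fixed by name. Further list genes and the neighbours were named after their values were seen. Some genes this rule takes are left out of the text. Alternatives were RLE and total-count scaling, DESeq2 1.42.0, limma-voom (limma 3.58.1), other count filters, a prior count of 2, the replicate block, the longest transcript as gene length and leaving out each library.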

Additional observations from a re-analysis of the deposited data

Results flagged for a closer look

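The 4 libraries of each group were examined for 1 value apart from the rest, over 66 sets of values, of which chance flags about 1 in 20. Among the regulators of Pmp22, Tead1 in YAP5SA replicate 2 was at 146 CPM, below the 172 CPM of the other YAP5SA libraries. Tead4 in YAP5SA replicate 4 was at 27.5 CPM, above the 16.6 to 18.4 CPM of the others, and its log2 fold change was 1.08 without that library. Nr3c1 in YAP5SA replicate 4 was at 126 CPM, below the 140 to 141 CPM of the others. None of the 4 family genes had a library apart in this sense.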

How the results depend on the processing

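The log2 fold changes of Pmp22, Emp2 and Emp1 kept their direction in every alternative run. With total-count scaling Emp1 was at 0.69 and Emp2 at 2.52, by the shift that scaling gives all genes. Pmp22 was at 7.47 with a prior count of 2, which draws low counts toward each other. Leaving out each library in turn gave 7.89 to 8.85 for Pmp22, lowest without Ctrl replicate 4 and highest without Ctrl replicate 3, 0.45 to 0.60 for Emp1, 2.25 to 2.37 for Emp2 and -0.48 to 0.02 for Emp3. The other alternatives gave log2 fold changes within the replicate spread of each gene. Lower calls numbered 2 among the partners and 0 among the regulators with total-count scaling, and 0 to 1 among the regulators when a library was left out. With the longest transcript as length, Emp1 made up 66.8% of the family in YAP5SA and 88.3% in Ctrl, and Pmp22 4.78% in YAP5SA. The replicate numbers were not taken as pairs, since deviations of same-numbered libraries correlated at 0.05 to 0.28 and only numbers 1 and 4 matched best with their own; with the replicate block Pmp22 was at 8.25, Emp1 at 0.52, Emp2 at 2.34 and Emp3 at -0.16, and 4715 genes were called higher and 4459 lower. Depth limits Emp3 in YAP5SA and Pmp22 in Ctrl, and the spread between replicates limits Emp3 in Ctrl.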
